A study of Mus musculus with 1536 samples.

Results

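The 6 genes of tetrahydrobiopterin (BH4) synthesis, regulation and recycling, Gch1, Pts, Spr, Gchfr, Pcbd1 and Qdpr, were followed through 999 single serotonin neurons of the mouse raphe. They were chosen by name, as 6 of the 53263 genes listed in the expression table. All 6 were among the 25522 genes with a read in at least 3 cells, and all 6 passed the mean of at least 1 CPM (a gene's reads after all cells are brought to 1 common total) that was asked of the 12834 genes used as background.

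BH4 is the cofactor of the aromatic amino acid hydroxylases, of the nitric oxide synthases and of alkylglycerol monooxygenase, and tryptophan hydroxylase cannot make the serotonin precursor 5-hydroxytryptophan without it. It is made from GTP in 3 enzyme steps, of which GTP cyclohydrolase (Gch1) is generally the limiting one and is bound by the feedback regulatory protein GFRP (Gchfr). Each round of hydroxylation leaves an oxidised pterin, which pterin carbinolamine dehydratase (Pcbd1) and quinoid dihydropteridine reductase (Qdpr) turn back into BH4.

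The cells came from C57BL/6J mice aged 40 to 45 days that carried Sert-Cre and the Cre reporter Ai14, so that tdTomato marked cells with a present or past activity of the Sert (Slc6a4) driver. Both dissections shared this genotype, and no untreated or reporter-free control was part of the design. The pDR dissection (brain region "Principal DR" in the labels) gave 290 cells on 5 plates, and the allDR dissection ("All DR", which the study's methods describe as the whole dorsal raphe with the median raphe) gave 709 cells on 11 plates. Labels named 1536 sorted cells, 480 of pDR and 1056 of allDR, and 537 of them were not analysed here. Because they named no animal, each dissection counts as 1 sample, and no test or p-value was made from cells. Plates are shown instead, and dissection, plate and animal cannot be told apart. The study used mice of both sexes and several brains for each dissection.

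Single tdTomato+ cells were sorted into plates and sequenced by the Smart-seq2 method, which covers whole polyadenylated transcripts but has no molecular identifiers. Depth ranged from 96834 to 2780443 reads per cell, with a median of 755926 in pDR and 869546 in allDR, and the median number of detected genes was 9784.5 and 9474. A single listed gene, CT010467.1, took 19.0% of the reads on average, with a range of 1.09% to 55.2% over cells, and lowers the CPM of all other genes in proportion. Tph2, the neuronal tryptophan hydroxylase, had a read in all 999 cells and a mean of 9608 CPM. Slc6a4 had no read in 2 cells. The first of these, on plate SER48, had 0 reads of all 6 BH4 genes and 16.6 CPM of Tph2, and the second, on plate SER55, had 61351 CPM of the myelin gene Mbp, 2953 CPM of Qdpr and no Gch1, Spr or Pcbd1. Correlations of the BH4 genes with Tph2 and with each other are given with and without these 2 cells where they differ. Over all cells the 5 microglial, the 5 astrocytic, the 4 endothelial and the 2 dopaminergic markers each had a median of 0, and the sum of the 5 oligodendrocyte markers exceeded 1000 CPM in 2 pDR and 7 allDR cells.

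On the mouse genome GRCm38 (mm10) the 6 genes lie on 6 different chromosomes. GENCODE places Gch1 at chr14:47153895-47189413 on the minus strand, Pts at chr9:50521617-50528724 on the minus strand, and Spr at chr6:85130176-85137766 on the minus strand. Gchfr is at chr2:119167773-119172390 on the plus strand, Pcbd1 at chr10:61089331-61094324 on the plus strand and Qdpr at chr5:45434021-45450236 on the minus strand. All are protein-coding. Exons of Qdpr share 332 bases with the antisense gene Gm42413, and because reads were counted without strand the reads from these bases cannot be assigned to either gene. The other 5 genes share no exonic base with another annotated gene.

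The 250 bases before the RefSeq start of 4 of the genes are shown because their RNA followed 3 different patterns: Gch1 and Qdpr varied together from cell to cell, while Gchfr and Spr differed between the dissections in opposite directions. Each sequence runs 5′ to 3′ on the strand of its gene, and capitals mark matches on either strand. The letters searched were TATAAA for the TATA box, GGGCGG for the GC box, CACGTG for the E-box and the 5 letters CCAAT of the box of that name, beside TGACGTCA for the cyclic AMP response element and CCGGAAGT for the site of ETS factors.
The windows are chr14:47189414-47189663 for Gch1, chr5:45450230-45450479 for Qdpr, chr2:119167538-119167787 for Gchfr, chr6:85137765-85138014 for Spr, on the strands given above, from RefSeq on GRCm38.p6.
Gch1: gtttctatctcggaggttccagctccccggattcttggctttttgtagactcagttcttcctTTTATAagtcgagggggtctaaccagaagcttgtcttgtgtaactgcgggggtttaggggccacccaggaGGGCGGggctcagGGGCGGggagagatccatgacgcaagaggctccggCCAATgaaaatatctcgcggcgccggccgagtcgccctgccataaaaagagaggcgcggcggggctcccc
Qdpr: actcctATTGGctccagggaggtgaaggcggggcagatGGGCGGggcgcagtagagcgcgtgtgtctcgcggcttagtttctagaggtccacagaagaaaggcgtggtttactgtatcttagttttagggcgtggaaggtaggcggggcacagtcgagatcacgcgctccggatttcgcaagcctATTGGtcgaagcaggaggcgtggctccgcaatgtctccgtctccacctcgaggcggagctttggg
Gchfr: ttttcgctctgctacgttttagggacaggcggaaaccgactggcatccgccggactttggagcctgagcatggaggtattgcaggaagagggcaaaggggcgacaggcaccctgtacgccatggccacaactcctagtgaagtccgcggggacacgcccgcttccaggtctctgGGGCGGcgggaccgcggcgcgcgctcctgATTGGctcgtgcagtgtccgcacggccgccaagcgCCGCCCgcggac
Spr: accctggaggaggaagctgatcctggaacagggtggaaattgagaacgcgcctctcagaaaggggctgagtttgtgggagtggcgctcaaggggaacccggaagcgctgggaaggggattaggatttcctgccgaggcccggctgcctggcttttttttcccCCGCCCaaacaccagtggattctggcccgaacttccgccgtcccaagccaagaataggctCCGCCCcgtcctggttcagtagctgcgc

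A GC box stood in 5 of the 6 windows, Pcbd1 being the exception, against 32.7% of all 32851 RefSeq windows of this length. A CCAAT box stood in 3 of the 6 (Gch1, Gchfr and Qdpr), against 33.8%. The TATA letters occurred in Gch1 and Pcbd1, against 12.4%, but 188 and 250 bases before the start and on the opposite strand, whereas the Tph2 window held them 30 bases before its start on the gene's own strand. None of the 6 windows held the letters of the cyclic AMP element, the E-box or the ETS site, which occurred in 1.55%, 6.02% and 2.88% of all windows in that order. G and C made up 51.6% to 66.4% of the 6 windows, 43.6% of that of Tph2 and 52.4% in the median window. These are matches of letters only, not sites shown to be bound.

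All 6 BH4 genes were found in almost every cell. Gch1, which encodes the first enzyme of the pathway, had the highest mean of the 6 in CPM, a measure that is not per length. Its mean of 1016.5 CPM was the 83rd highest of all genes, with a median of 1044 CPM and a 5th to 95th percentile range of 404 to 1526 CPM. Spr, which encodes the last enzyme of synthesis, had the lowest mean of the 6, at 71.8 CPM and the 2327th highest of all genes.

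Gch1 had a read in 995 of the 999 cells (99.6%, exact Clopper-Pearson 95% interval 99.0 to 99.9%). Pts, 6-pyruvoyl-tetrahydropterin synthase, the second enzyme, was found in 992 cells at a mean of 134.9 CPM. Spr, sepiapterin reductase, the third enzyme, was found in 977 cells (97.8%, 96.7 to 98.6%). The regulator Gchfr was found in 998 cells at a mean of 628 CPM. Of the recycling enzymes, Pcbd1 was found in 994 cells at 128.4 CPM and Qdpr in 998 cells at 350.7 CPM. With at least 5 reads asked for, the share of cells was still 96.5% for Spr and lay between 99.0% and 99.9% for the other 5. These intervals cover counting error only.

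Spread over cells differed between the genes. The coefficient of variation over cells was lowest for Gch1, at 33.8%, and was 37.3% for Gchfr, 39.5% for Pcbd1, 41.3% for Qdpr, 52.3% for Pts and 58.9% for Spr. The median over the 1647 genes with a mean of at least 100 CPM was 40.1%, and 27.7% of these genes had a lower value than Gch1. Spr, with a mean under 100 CPM, is set beside them for scale only.

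**Figure D1:**
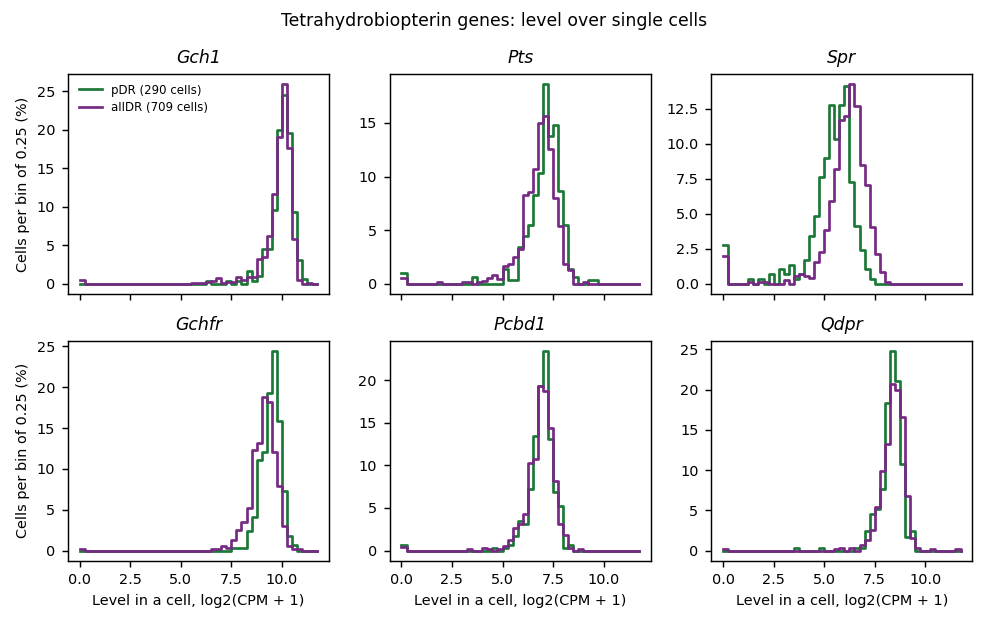
Level of each BH4 gene over single cells, as log2(CPM + 1) in bins of 0.25 on the horizontal axis against the share of cells in percent, for 290 pDR cells (green) and 709 allDR cells (purple). Each gene forms 1 peak with few cells at 0, and the allDR curve lies to the right of the pDR curve for Spr and to the left for Gchfr.

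Levels of different genes can be set side by side only per length. Divided by the kilobases of exon in the annotation, the 6 genes fell into 3 steps. Gchfr led at 974 CPM per kb, with plate means from 698 to 1214 CPM per kb, above Qdpr on all 16 plates. Next came Qdpr at 196 CPM per kb, Gch1 at 163 CPM per kb and Pcbd1 at 157 CPM per kb. Qdpr was above Gch1 on 14 of the 16 plates, and Gch1 above Pcbd1 on only 7 of them, so these neighbours were not separated beyond the spread between plates. Pts at 22.1 CPM per kb and Spr at 20.3 CPM per kb formed the lowest step, with Pts above Spr on 8 of the 16 plates. Tph2 stood at 3337 CPM per kb on the same scale. The exon union counts every annotated exon: 645 bases for Gchfr, 817 for Pcbd1, 3545 for Spr, 6101 for Pts and 6251 for Gch1. Which isoforms were present was not measured, so the steps rest on these lengths. In CPM, Pts at 134.9 was above Pcbd1 at 128.4.

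Per length, the regulator Gchfr was thus above Gch1. In CPM, which is not per length and favours the longer Gch1 transcript, the order was the reverse: Gch1 CPM was above Gchfr CPM in 858 of the 999 cells (85.9%, exact 95% interval 83.6 to 88.0%). The share was 84.1% of pDR cells and 86.6% of allDR cells. By plate it ran from 57.1% on SER39 to 96.7% on SER67, well outside the interval. The interval takes cells as independent and does not cover this spread between plates.

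The comparison of the 2 dissections asks whether BH4 gene levels differ between principal dorsal raphe neurons and the mixed set. Spr was lower in pDR and Gchfr higher, on every plate, and the other 4 genes overlapped. None of the 6 was past 2-fold in either direction, where 4.63% of all genes were. The plate means of all 6 genes are drawn by dissection.

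Mean Spr was 55.9, 50.2, 53.9, 37.6 and 37.9 CPM on the 5 pDR plates and ran from 69.0 to 107.7 CPM on the 11 allDR plates, with a median of 78.7 CPM. Every pDR plate was thus below every allDR plate. Over cells the means were 49.6 and 80.9 CPM, a log2 ratio of pDR over allDR of -0.69. Plate means of pDR were all below those of allDR for 4.92% of genes, and 3.95% of genes had a lower log2 ratio than Spr.

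Mean Gchfr was 783, 703, 672, 757 and 722 CPM on the pDR plates, and ran from 450.0 to 665 CPM on the allDR plates, with a median of 594 CPM. The lowest pDR plate, SER25, was only just above the highest allDR plate, SER63. Over cells the means were 732 and 585 CPM, a log2 ratio of 0.32, and 4.18% of genes had all pDR plate means above all allDR plate means. Tph2 went with Spr in being lower on every pDR plate, with plate means of 7402 to 8672 CPM against 8913 to 11197 CPM and a log2 ratio of -0.32.

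Gch1 plate means were 1209, 1231, 964, 777 and 848 CPM in pDR and 909 to 1052 CPM in allDR. The pDR plates thus lay on both sides of the allDR range, SER12 and SER13 above it and SER39 and SER40 below it, so that the log2 ratio of 0.14 describes none of them. Pts had plate means of 121 to 207 CPM in pDR and 106 to 150 CPM in allDR, with a log2 ratio of 0.30 and overlapping ranges. Qdpr, at 290 to 343 against 304 to 411 CPM, had a log2 ratio of -0.12, and Pcbd1, at 118 to 135 against 103 to 146 CPM, one of 0.02.

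**Figure D2:**
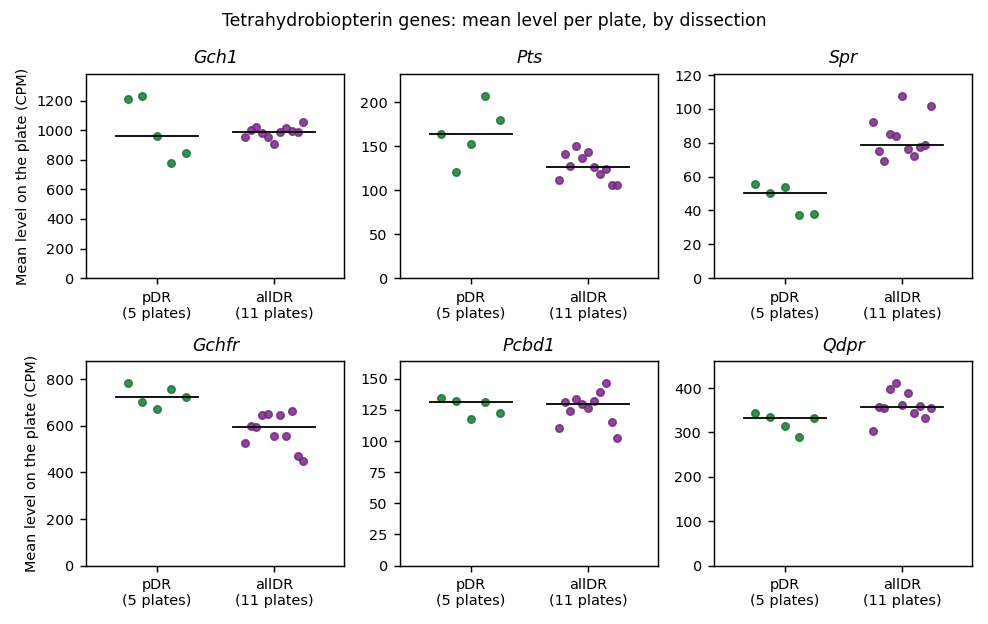
Mean level of each BH4 gene per plate in CPM (vertical axis from 0), for 5 pDR plates (green) and 11 allDR plates (purple), in order of plate number; the line is the median of the plates. Spr lies at 37.6 to 55.9 CPM in pDR and 69.0 to 107.7 CPM in allDR, Gchfr at 672 to 783 and 450.0 to 665 CPM, and the other 4 genes overlap.

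The balance of Pts and Spr, which act one after the other, therefore differed between the dissections. The ratio of mean Pts to mean Spr CPM was 2.40 to 5.51 on the pDR plates, with a median of 2.93, and 1.04 to 1.88 on the allDR plates, with a median of 1.63, so the ranges did not overlap. The ratio of mean Gch1 to mean Spr was 17.9 to 24.5 in pDR and 8.44 to 14.8 in allDR, again without overlap. Both ratios hold the Spr difference given above. Ratios without Spr overlapped: Gch1 to Gchfr was 1.03 to 1.75 in pDR and 1.47 to 2.34 in allDR. Gch1 to Pts was 3.75 to 10.2 and 6.32 to 9.91, and Qdpr to Pcbd1 2.21 to 2.71 and 2.45 to 3.46. No share over all pairs of genes is set beside these values. The common total that CPM is scaled to cancels in these ratios of plate means. The read total of each cell does not cancel, so the share taken by CT010467.1 can still weigh cells differently.

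Depth and handling signs moved with the dissection too. CT010467.1 took a median of 15.6% of reads in pDR and 19.3% in allDR cells. Summed over 6 immediate-early genes, the median was 58.7 CPM in pDR and 177 CPM in allDR. Leaving out the 100 genes with the highest mean from the total gave log2 ratios of -0.75 for Spr and 0.26 for Gchfr. Among the housekeeping genes Actb was 1962 CPM in pDR and 1271 CPM in allDR, with no overlap of plates. The part of these signs in the Spr and Gchfr differences was not tested.

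Whether cells with more Tph2 also carry more cofactor-gene RNA was examined across the cells of each plate. For most of the 6 genes the answer was close to none, and for Gch1 it depended on how the relation was measured. Correlations are descriptions over 27 to 93 cells of a plate, which share library preparation and differ in depth.

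The Pearson correlation of ln(CPM + 1) of Gch1 with Tph2 had a median over plates of 0.27, and was above 0 on 13 of 16 plates, with a range from -0.39 on SER56 to 0.81 on SER48. A median of at least 0.2 was reached by 1 of the 6 BH4 genes, Gch1, and by 5.36% of all genes. Given the log reads and detected genes of the cell, the median for Gch1 was 0.15, under that threshold. Without the 2 cells that lacked Slc6a4 the median for Gch1 was 0.21 and the highest plate was at 0.45. By rank (Spearman) the median was 0.00, with 9 of 16 plates above 0. The cells of each plate were also split into 3 equal groups by Tph2, and the 327 cells of the top groups set against the 327 of the bottom groups. Mean Gch1 was 969 CPM in high-Tph2 and 941 CPM in low-Tph2 cells, a log2 ratio of 0.04, above 0 on 10 of 16 plates. The Gch1 relation seen on the log scale was thus near 0 by rank and by level.

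Gchfr had a median r of 0.14 and Spr of 0.10, with 10 and 13 of the 16 plates above 0, while Pts, Qdpr and Pcbd1 had medians of -0.02, -0.02 and 0.00. Without the 2 cells the medians were 0.07 for Gchfr, on 9 plates, 0.08 for Spr, on 12 plates, -0.02 for Pts, -0.04 for Qdpr and -0.03 for Pcbd1. Given log reads and detected genes, Gchfr and Spr were below 0, at -0.08 and -0.05. By rank Qdpr had the lowest value of the 6: its median rho with Tph2 was -0.20, above 0 on 3 of 16 plates, and 0.701% of genes were lower. Mean Qdpr was 313 CPM in high-Tph2 and 369 CPM in low-Tph2 cells, a log2 ratio of -0.23, above 0 on only 2 of 16 plates. Spr had the highest such ratio of the 6, 75.7 against 65.5 CPM (log2 0.21), above 0 on 11 plates. None of the 6 genes was 1.5-fold higher in the high-Tph2 cells, where 2.13% of all genes were.

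Most serotonin genes behaved differently on the same plates, though less so by rank. Slc6a4, the serotonin transporter, had a median r with Tph2 of 0.62, Ddc, the decarboxylase that completes serotonin synthesis, of 0.51, and Slc18a2, the vesicular monoamine transporter, of 0.45, each above 0 on all 16 plates. Without the 2 cells that lack Slc6a4 these medians were 0.60, 0.41 and 0.42 in that order, and by rank 0.57, 0.33 and 0.22. Maob had a median rho of 0.28, Maoa of 0.11 and Fev of -0.11. Of the 6 serotonin genes other than Tph2, 5 had a median r of at least 0.2 over all cells, the exception being the transcription factor Fev at -0.08. Of the 6 housekeeping genes, 1 did (Gapdh, 0.21). The median over the 6 BH4 genes was 0.05, over the 6 housekeeping genes 0.11 and over all genes 0.07. Depth went with Tph2: high-Tph2 cells had a median of 923343 reads and 9918 genes, and low-Tph2 cells 745482 reads and 8977 genes. The part of depth in these values was not tested beyond the alternatives given in the closing section.

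**Figure D3:**
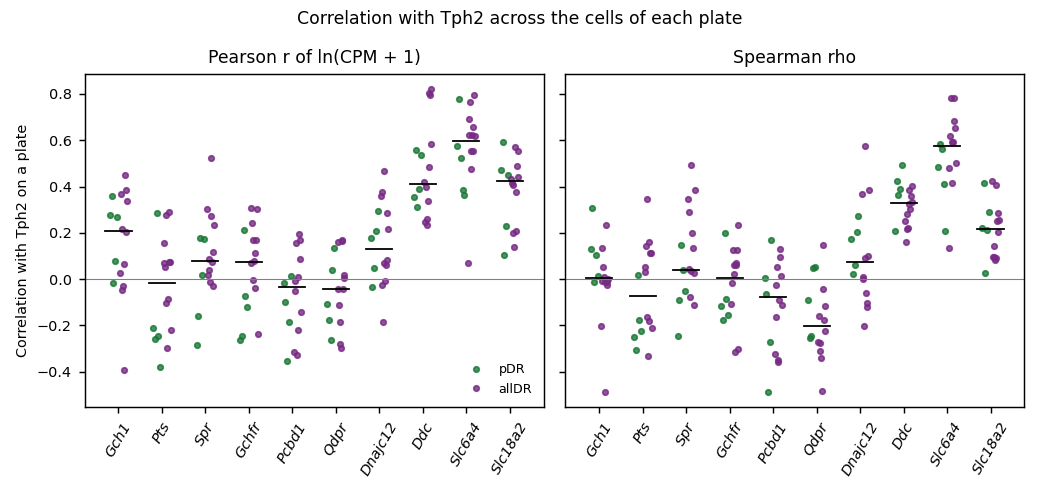
Correlation with Tph2 across the cells of each plate (vertical axis, no unit) for the 6 BH4 genes, Dnajc12 and 3 serotonin genes, as Pearson r without the 2 cells that lack Slc6a4 (left) and Spearman rho of all cells (right); each point is a plate, green for pDR and purple for allDR, and the line is the median of 16 plates. Ddc, Slc6a4 and Slc18a2 lie above 0 on every plate, while the BH4 genes lie on both sides of it, Qdpr being above 0 by rank on 3 of 16 plates.

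Among themselves, 5 of the BH4 genes were weakly related and Spr stood apart. The highest median r over plates was that of Gch1 with Qdpr, at 0.40, so the first enzyme of synthesis and the last of recycling varied together. Without the 2 cells that lack Slc6a4 it was above 0 on all 16 plates. Gchfr with Pcbd1 came next at 0.35, and was above 0 on all 16 plates in the same cells. Gch1 with its regulator Gchfr was at 0.22, above 0 on 13 plates. Spr had median values from 0.00 with Pts to 0.17 with Qdpr, or from -0.05 with Gchfr to 0.12 with Qdpr without the 2 cells, and by rank from -0.08 to 0.03. With the 6 housekeeping genes, measured the same way without the 2 cells that lack Slc6a4, Gch1 had medians from -0.04 to 0.18, and Gch1 with Qdpr was at 0.43. Other BH4 genes had housekeeping values near those among the members. In the same cells Gchfr was at 0.34 with Gapdh, above 0 on 16 plates, and at 0.25 with Ppia, beside 0.22 with Gch1. Spr was at 0.20 with Gapdh and 0.19 with Actb, above its value with any BH4 gene. The highest housekeeping median was that of Gapdh for Pts (0.20), Qdpr (0.17) and Pcbd1 (0.15).

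By rank, Gch1 had a correlation above 0 with 5 of the 6 other serotonin genes on every plate. Its median rho was 0.39 with Ddc, 0.37 with Slc18a2, 0.32 with Slc6a4, 0.29 with Fev and 0.14 with Maob, each above 0 on all 16 plates, and 0.11 with Maoa, above 0 on 10. With Tph2 it was 0.00 by rank, beside the Pearson median of 0.27. With the 6 housekeeping genes it ran from -0.03 for Actb to 0.17 for Gapdh. Gapdh was above 0 on 13 plates, the most of these 6, and its median was above those of Maob and Maoa. Depth and cluster were not held constant for these pairs, and no share over all genes is set beside them. Gchfr had a median rho of 0.28 with Ddc, above 0 on 16 plates, and of 0.02 with Slc18a2, above 0 on 9. Spr had medians from -0.15 with Slc6a4 to 0.08 with Maoa, a monoamine oxidase, and no serotonin gene was above 0 with it on more than 11 plates.

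Over the 8087 genes with a mean of at least 10 CPM, those most like Gch1 from cell to cell were Cdyl2 (median r 0.61), Pea15a (0.59) and Cplx2 (0.54), where the median gene was at 0.08. Cdyl2 was also first for Qdpr, at 0.46, followed by Pcsk2 at 0.42 and Gch1 itself at 0.40. For Gchfr they were Mt3 (0.52), Bex3 (0.45) and Atp5g1 (0.40), and for Pcbd1 they were Cplx2 (0.36), Pitpnc1 (0.35) and Gchfr (0.35). Pts had no close neighbour, Dgkk leading at 0.30 before Cdk14 (0.30) and Tmsb4x (0.27). For Spr the first 3 were Got2 (0.49), Sult4a1 (0.48) and Wbp2 (0.47), which went down to 0.20, 0.36 and 0.29 without the 2 cells that lack Slc6a4.

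Cells were then grouped without the BH4 genes. Louvain clustering that left out the 6 genes and all other listed genes gave 12 clusters of 23 to 159 cells, called here by their leading gene. The clusters followed the dissections: the Gad1, Cwc22 and Ccdc85c clusters held pDR cells alone, the Rgs5 cluster held 55 pDR and 12 allDR cells, and the other 8 held allDR cells with at most 2 of pDR. Of the 67 cells of the Rgs5 cluster, 42 were on 1 plate, so plate and cluster cannot be told apart for most of them. Within the allDR plates each cluster can be set against the other cells of its own plates. Clusters are no replicates, and none of the following is a test.

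The widest range was that of Gch1, whose cluster means ran from 212 CPM in the Tecrl cluster to 1414 CPM in the Sox14 cluster. The next lowest was the Piezo2 cluster at 718 CPM, whose plate means of 636 to 783 CPM did not overlap those of the Tecrl cluster at 208 and 229 CPM. Spr ran from 42.0 CPM in the Ccdc85c cluster to 121 CPM in the Piezo2 cluster, Pts from 73.9 CPM in the Tecrl to 184.8 CPM in the Rgs5 cluster, and Gchfr from 394 CPM in the Piezo2 to 766 CPM in the Ccdc85c cluster. Pcbd1, at 92.7 to 166 CPM, and Qdpr, at 251 to 436 CPM, varied least, and both were lowest in the Piezo2 cluster. For Gchfr, Pts and Pcbd1 the plate means of every cluster overlapped those of its neighbours in the order. For Gch1 the Sox14 cluster was also apart from the next highest, the Gad1 cluster at 1288 CPM.

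**Figure D4:**
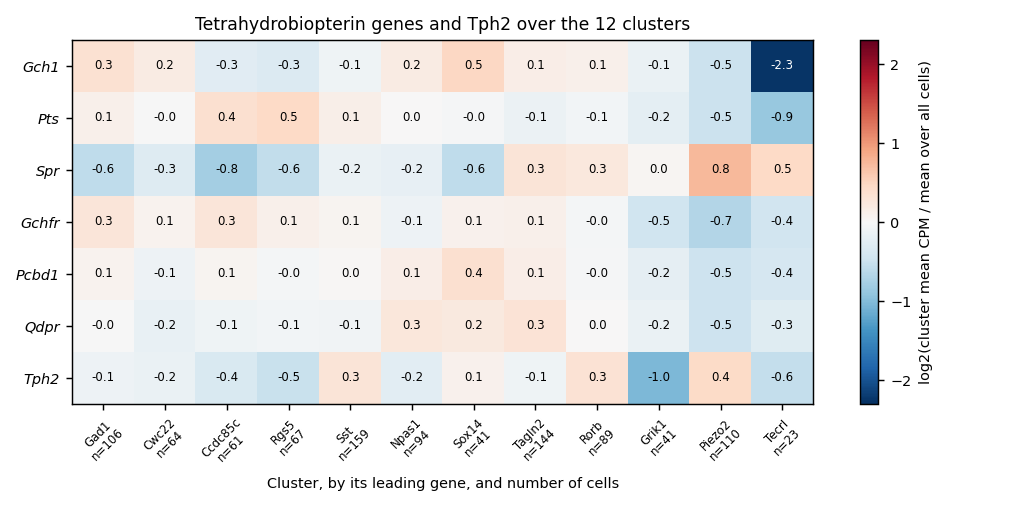
Mean level of each BH4 gene and Tph2 in 12 clusters (columns, by leading gene and number of cells), as log2 of the cluster mean over the mean of all 999 cells. Gch1 is lowest in the Tecrl cluster, and in the Piezo2 cluster 5 BH4 genes are below 0 while Spr and Tph2 are above it.

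The Piezo2 cluster (led by Piezo2, Pter and C1ql3, 110 allDR cells) had the most Tph2 of the 12, a mean of 13062 CPM, and less RNA of 5 of the 6 BH4 genes. On the 9 plates with at least 5 of its cells, Gch1 was 705 CPM in these cells and 1069 CPM in the other cells of the same plates, a log2 ratio of -0.60 with a plate range of -0.81 to -0.39. Gchfr was 379 against 613 CPM (log2 -0.69), Qdpr 252 against 389 CPM (-0.63), Pcbd1 90.6 against 132 CPM (-0.54) and Pts 92.3 against 133 CPM (-0.53). Each of these 5 genes was lower in the cluster on 9 of 9 plates, as were 10.9% of all genes.

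Spr went the other way in the same cells. Its mean was 124 CPM in the Piezo2 cluster and 73.7 CPM in the other cells of those plates, a log2 ratio of 0.74 with a plate range of 0.39 to 1.07, higher on 9 of 9 plates, as were 6.58% of all genes. Tph2 itself was 13349 against 9456 CPM (log2 0.50), also on 9 of 9 plates. The median log2 ratio over all genes was -0.04, and that over the 6 BH4 genes -0.57. Of the 6 housekeeping genes, Gapdh and Pgk1 were lower on all 9 plates, by log2 ratios of -0.19 and -0.26, and none was higher on all 9. These cells had a median of 902382 reads and 9429 genes, against 869546 and 9474 for all allDR cells. Without the Piezo2 cluster, the log2 ratio of Spr between the dissections was -0.56 in place of -0.69.

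The Tecrl cluster (led by Tecrl, S1pr3 and P2ry1, 22 allDR cells and 1 pDR cell) had the least Gch1. Its cells ran from 61.1 to 677 CPM with a median of 192 CPM, and it held 21 of the 50 cells in the lowest 5% of Gch1 while making up 23 of the 999 cells. Gchfr was at least as high as Gch1 in 20 of its 23 cells, and Gch1 was above Gchfr in 13.0% (exact 95% interval 2.78 to 33.6%), against 63.9% to 100% of the cells of the other 11 clusters. Here too the interval takes cells as independent and leaves out the spread between plates. On the 8 allDR plates with at least 1 of its cells, Gch1 was 184 CPM against 1022.5 CPM in the other cells, a log2 ratio of -2.46 with a plate range of -3.57 to -1.35. It was lower on 8 of 8 plates, as were 9.39% of all genes.

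The other BH4 genes had smaller gaps or none in the Tecrl cluster. Gchfr was 466 against 593 CPM and Qdpr 276 against 357 CPM, lower on 6 and 7 of 8 plates, and Spr was 93.5 against 77.4 CPM, higher on 4. Pts was 68.9 against 128 CPM (log2 -0.88) and Pcbd1 103 against 130 CPM (-0.33), lower on 7 and 6. None of the 6 was higher on all 8, as 1.89% of all genes were. The same cells were lower on 8 of 8 plates in Tph2 (6303 against 10349 CPM, log2 -0.72), Slc6a4 (1477 against 3779 CPM, -1.35) and Slc18a2 (1586 against 2917 CPM, -0.88). Ddc was also lower on 8 of 8 (log2 -0.33), and Maoa on 7 (-0.73). Not all serotonin genes were lower: Maob was higher on 8 of 8 plates (1289.5 against 926 CPM, log2 0.48). Fev was 233 against 219.5 CPM, higher on 4. The cells of the cluster had a median of 782692 reads and 8850 genes, within the range of the other clusters. Their median immediate-early sum of 383 CPM was the highest of the 12. The part of this sign in the Gch1 difference was not tested. With 1 to 6 of its cells on any plate, the cluster's plate means rest on few cells.

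**Figure D5:**
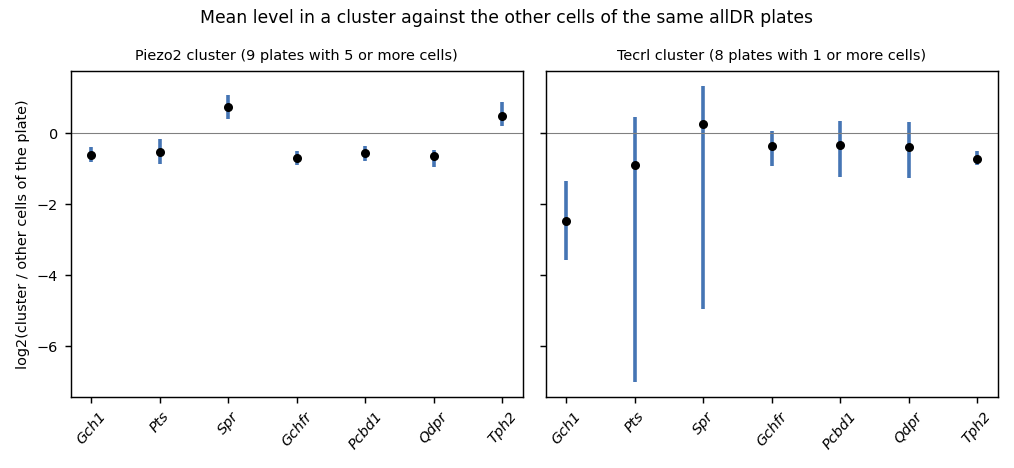
Level of each BH4 gene and Tph2 in the Piezo2 cluster (left, 9 plates) and the Tecrl cluster (right, 8 plates) against the other cells of the same allDR plates, as log2 ratios; points are ratios of the means over plates and bars run from the lowest to the highest plate. In the Piezo2 cluster Spr and Tph2 are above 0 and the other 5 genes below on every plate, and in the Tecrl cluster the Gch1 bar runs from -3.57 to -1.35.

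Other clusters differed by smaller amounts. In the Sox14 cluster (41 cells) Gch1 was 1384 against 958 CPM (log2 0.53), Pcbd1 167 against 131 CPM (0.34) and Qdpr 424 against 367 CPM (0.21), all higher on 5 of 5 plates, as were 7.69% of all genes, while Spr was 48.6 against 78.3 CPM (-0.68), lower on 5 of 5, as were 13.6%. In the Tagln2 cluster (144 cells) Gch1, Gchfr, Qdpr and Pcbd1 were higher on 11 of 11 plates, as were 2.66% of all genes, with log2 ratios of 0.26, 0.33, 0.38 and 0.24, and none was lower on all 11, as were 2.99%. In the Sst cluster (159 cells) Spr and Qdpr were lower on 8 of 8 plates, as were 6.72% of all genes, and Pts was higher on 8 of 8 (148 against 123 CPM), as were 3.9%. In the Npas1 cluster (94 cells) Gch1 was 1134 against 968 CPM and Qdpr 424 against 350 CPM, higher on 7 of 7 plates, as were 4.35% of all genes, and none of the 6 was lower on all 7, as were 8.4%. In the Grik1 cluster (41 cells), which had the least Tph2, Gchfr was 472 against 623 CPM and Qdpr 308 against 377 CPM, lower on 4 of 4 plates, as were 16.3% of all genes, and none was higher on all 4, as were 11.5%. In the Rorb cluster (89 cells) none of the 6 genes was higher or lower on all 10 plates, where 1.98% and 3.71% of all genes were.

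The 12 allDR cells of the Rgs5 cluster, which lay on 9 plates and is led by Rgs5, Apoe and Mbp, were low in Gch1 too. Gch1 was 356 against 990 CPM and lower on 9 of 9 plates, as were 18.4% of all genes, while none of the 6 was higher on all 9, as were 0.0234%. The median of all genes was itself shifted in these cells, to a log2 ratio of -0.61, and the cluster had the fewest detected genes of the 12, a median of 8212. Over its 67 cells the median sum of the 5 oligodendrocyte markers was 5.01 CPM. Both cells without Slc6a4 belong to this cluster. With them left out, a choice made after seeing the data, Gch1 was 458 against 996 CPM and lower on 7 of 7 plates, as were 22.4% of all genes. Qdpr turned from 514 against 361 CPM with these 2 cells to 239 against 369 CPM without them.

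Among pDR cells, the Gad1 and Cwc22 clusters of plates SER12 and SER13 had mean Gch1 of 1288 and 1152.5 CPM and a median immediate-early sum of 137 CPM. The Ccdc85c cluster of SER39 and SER40 had 851 CPM of Gch1 and a sum of 1.81 CPM, so that plate and cluster cannot be told apart there.

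The other genes of BH4 use were mostly low. Of 12 pathway genes that were no members, 8 had a mean of at least 1 CPM. Beside Tph2, other hydroxylases were rare: Tph1, the paralog known from the gut and the pineal gland, had a read in 24.1% of cells at a mean of 6.13 CPM, and Th in 5.31%. Of the nitric oxide synthases, Nos1 had a read in 21.1% of cells at 12.1 CPM and Nos3 in 42.1% at 3.63 CPM. Nos2 had a read in 0 of 999 cells, which allows up to 0.369% (exact 95% interval), or 0.300% with a floor of 3 counts. Agmo, the alkylglycerol monooxygenase, had a read in 1 cell.

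Tph1 followed the Piezo2 cluster. It was 27.5 CPM in that cluster and 2.70 CPM in the other cells of its plates (log2 2.94), higher on 9 of 9 plates, and had a read in 88.2% of the cluster's cells against 4.88% to 43.5% in the other 11 clusters. Across plates mean Tph1 was 10.4 CPM in high-Tph2 and 3.43 CPM in low-Tph2 cells. It was the 1 of the 8 pathway genes that was 1.5-fold higher, as were 2.13% of all genes. A median r with Tph2 of at least 0.2 was reached by 2 of the 8, Akr1b3 (0.23) and Pcbd2 (0.21), and by 5.36% of all genes. Without the 2 cells that lack Slc6a4 neither of these 2 genes reached it (0.15 and 0.17). Tph1 and Tph2 are paralogs, and whether reads of Tph2 were counted for Tph1 was not tested. Nos1 was the 1 of the 8 past 2-fold between dissections, as were 4.63% of all genes. It was at 6.18 CPM in pDR and 14.6 CPM in allDR, with overlapping plates.

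Genes of side routes were found in most cells. Cbr1 and Akr1b3, reductases that can stand in for sepiapterin reductase, were at 139 and 75.6 CPM and found in 993 and 989 cells. Of these, Cbr1 was lower on every pDR plate (111 to 119.5 CPM) than on any allDR plate (128 to 175 CPM), as were Spr and 4.92% of all genes. Pcbd2, the second dehydratase, was at 19.1 CPM. Dnajc12, a co-chaperone of the aromatic amino acid hydroxylases, was at 515 CPM in 998 cells, with its highest cluster means in the Tecrl (853 CPM) and Piezo2 (677 CPM) clusters. In the Tecrl cluster it was 908 against 521 CPM on the same plates (log2 0.80), higher on 8 of 8 plates, where Gch1 was lower on all 8.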

How the data were processed

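Expression of single tdTomato+ cells was measured by Smart-seq2. Per the labels' processing notes and the study's methods, the authors demultiplexed reads with bcl2fastq (2.19.0.316), aligned them to mm10 with STAR (2.6.1a), counted them per gene without strand with HTSeq (0.11.2), removed Y-linked genes, and kept cells with at least 300 genes and 50000 reads. The deposited table gives CPM, with each cell scaled to the same total, per the file's values. Every value (100%) was a whole multiple of the cell's smallest step within a tolerance of 0.001, so whole reads were recovered. No count test was run, because each dissection is 1 sample.

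Here, plate means, log2 ratios of mean CPM + 1, within-plate correlations of ln(CPM + 1) and 3 equal groups of cells by Tph2 were computed (Python 3.11.15, NumPy 2.4.6, SciPy 1.17.1), and cells were clustered with Seurat 5.3.0 (20 components, 20 neighbours, resolution 1). Thresholds were 2-fold, r of 0.2 and 1.5-fold over genes with a mean of at least 1 CPM. Named genes were the 6 BH4 genes, Tph2, the pathway, serotonin, housekeeping and marker lists, the 3 genes most like each BH4 gene and the 3 leading genes of each cluster. The measures were tested on simulated data, where all 200 planted genes were recovered (100%) and 12 planted clusters gave 12. The planted effects lay well past the thresholds: a log2 ratio of 1.5 between dissections and a median r with Tph2 of 0.49. Between high-Tph2 and low-Tph2 cells the planted genes had a median log2 ratio of 1.34. Recovery of smaller effects, such as those of the BH4 genes in these 3 measures, was not tested. Members and lists were chosen with earlier results of these data known, and the Piezo2 and Tecrl clusters were singled out after their values were seen. Gene positions come from GENCODE M21 and promoter windows from RefSeq on GRCm38.p6. Some genes of the pathway list are counted but not reported here by name.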

Additional observations from a re-analysis of the deposited data

How the results depend on the processing

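The values of the 6 genes moved by less than 1 SD between plates under the alternatives run, apart from the Rgs5 cluster: other pseudocounts, plate-mean or log weighting, thinning to 250000 reads, CPM without the 100 highest genes, cells split in 2 or 4 by Tph2, ranks, partial correlations, other clusterings, and, added after seeing the data, leaving out the 2 cells without Slc6a4 or the Piezo2 cluster. That SD is wide for correlations: given reads and detected genes, the median r with Tph2 went from 0.27 to 0.15 for Gch1, from 0.14 to -0.08 for Gchfr and from 0.10 to -0.05 for Spr. Sign was not stable for values near 0: without the 100 highest genes, and without the Piezo2 cluster, Pcbd1 had a log2 ratio between the dissections of -0.05. Direction turned for Qdpr in the Rgs5 cluster, with a log2 ratio of 0.51 with the 2 cells without Slc6a4 and of -0.62 without them. Of the background counts, 594 genes past 2-fold became 894 with a pseudocount of 0.1 CPM, 148 with 10 CPM and 271 of the genes with a mean of at least 10 CPM. The 688 genes with a median r of at least 0.2 became 309 by rank, 415 after thinning, 57 given reads and detected genes, and 132 given the cluster. The 273 genes 1.5-fold higher in high-Tph2 cells became 144 with cells split in 2, 436 and 67 with pseudocounts of 0.1 and 10 CPM, and 92 of the genes with at least 10 CPM. Leaving out each plate gave 540 to 668, 608 to 865 and 249 to 305 genes. For the BH4 genes it gave Spr a dissection log2 ratio of -0.78 to -0.64 and Gchfr one of 0.27 to 0.35. No paired analysis was possible because no result comes from a test and the labels name no animal.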
